A study of Mus musculus with 12 samples.

Results

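The genes described here are 10 mouse genes that make peptides for MHC class I molecules and load them: the transactivator Nlrc5, the transporter subunits Tap1 and Tap2, the loading factor Tapbp, the immunoproteasome subunits Psmb8, Psmb9 and Psmb10, the proteasome activator subunits Psme1 and Psme2, and the trimming peptidase Erap1. They are a list of names taken from what is known of the pathway, drawn up with earlier results of these data in view, and all 10 were found by Ensembl identifier among the 57010 genes of the count table. All 10 passed the filter on low counts that left 19166 genes for testing.

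MHC class I molecules carry short peptides from proteins made inside the cell to its surface, where CD8 T cells inspect them. The proteasome cuts proteins into peptides, TAP pumps these into the endoplasmic reticulum, and tapasin and its partners fit them onto the class I heavy chain and beta-2-microglobulin. Interferons replace the catalytic subunits of the proteasome with the inducible subunits of the immunoproteasome, and NLRC5 is the transactivator that drives transcription of class I genes and of several genes of the loading pathway. In healthy brain, neurons and glia carry little class I.

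The data are bulk RNA-seq counts from cerebellum, taken per the series title from crus 1, part of the cerebellar hemisphere. Libraries came from Fmr1 knockout mice given poly(I:C) into the peritoneal cavity (poly(I:C) knockout, n = 4), Fmr1 knockout mice given saline (saline knockout, n = 4, called sham in their titles) and FVB mice given saline (n = 4). FVB is an inbred strain, named in the series as the background strain. Fmr1 encodes FMRP, which binds many neuronal mRNAs and is lost in fragile X syndrome. Poly(I:C), a man-made double-stranded RNA, is read by cells as a sign of viral infection. No FVB group given poly(I:C) was analysed here, and so a difference in response between genotypes was not tested. The sources used here do not give the dose, the time after injection, age or sex, nor do they state that each library is a separate animal, so p-values measure the spread between libraries.

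Total counts ran over 39.4 to 56.4 M in poly(I:C) knockout libraries, 38.7 to 50.2 M in saline knockout libraries and 35.2 to 48.7 M in FVB libraries. Fmr1 RNA was at 33.9 to 36 CPM in the poly(I:C) knockout and 27.9 to 36.7 CPM in the saline knockout, against 85.5 to 108 CPM in FVB (CPM, counts-per-million of library totals scaled by TMM). The ranges of knockout and FVB libraries did not meet, and Fmr1 reads were present in all of them. Summed over 8 markers each, Purkinje cell RNA was at 7065 to 9030 CPM and granule cell RNA at 6229 to 7019 CPM in the 12 libraries, so both defining cerebellar cell types were present. Ttr, a choroid plexus gene, stood above 1000 CPM in 3 libraries: 2167 and 2631 CPM in poly(I:C) knockout libraries 2 and 3 and 4156 CPM in saline knockout library 2, against 1.63 to 65.3 CPM in the other 9. Results are given with and without these 3. Without them poly(I:C) knockout libraries 1 and 4, saline knockout libraries 1, 3 and 4 and all FVB libraries remain. For a call lost there, the high Ttr and the smaller number of libraries cannot be told apart.

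Several members are neighbours. In GENCODE M21, on the GRCm38 build, Psmb9, Tap1, Psmb8 and Tap2 lie in that order within 34.3 kb of chromosome 17, in the MHC, and Tapbp is on the same chromosome (start 33915899, end 33929292). Psmb9 (start 34181987, end 34187764, minus strand) and Tap1 (start 34187553, end 34197225, plus strand) point away from each other, with 225 bases between their RefSeq starts. Psmb8 (start 34197721, end 34201454) begins 495 bases after Tap1 ends, and Tap2 (start 34203527, end 34216321) begins 2072 bases after Psmb8. Psme1 and Psme2 lie 5.91 kb apart on chromosome 14, Nlrc5 and Psmb10 are on chromosome 8 and Erap1 is on chromosome 13. The counts were made on GRCm39, so these positions serve only to describe the neighbourhood.

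The promoters are shown because most members rose in treated mice. RefSeq windows of 250 bases before the start (GRCm38.p6) were searched on both strands for 8 members: Tap1, Tapbp, Psmb8, Psmb9, Psmb10 and Psme1, which rose, and Psme2 and Erap1, which were not called. Nlrc5 and Tap2, which rose, were not searched. The interferon-stimulated response element core (GAAA, any 2 bases, GAAA) was in the windows of 0 of the 8 members and in 2.98% of 32851 mouse promoters. The shorter IRF site AANNGAAA, which lies inside that core, was in 0 of 8 and 21.3%, and the kappaB motif (GGGA, any base, TTTCC) in 0 of 8 and 0.356%. The gamma-activated sequence motif TTCNNNGAA was in 1 of 8, Psmb8, and in 7.02% of promoters, and CCAAT, the box that NF-Y binds, was in 3 of 8, Tap1, Psmb9 and Tapbp, and in 33.8%. The matches are printed with 30 bases of sequence on the gene's strand, the motif in capitals (ATTGG is CCAAT read from the other strand).
Tap1, chr17:34187321-34187350, plus strand: ggggctcggctttCCAATcagcggctgcgc
Psmb9, chr17:34187331-34187360, minus strand: cctgcaccgcgcgcagccgctgATTGGaaa
Psmb8, chr17:34198087-34198116, plus strand: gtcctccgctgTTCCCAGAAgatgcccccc
Tapbp, chr17:33919228-33919257, plus strand: aaATTGGgttgtcatgaaagtgggtggaca
Tapbp, chr17:33919300-33919329, plus strand: gattaaaatatttATTGGtcacttcacttg
The Tap1 box lies 222 to 218 bases before its RefSeq start and the Psmb9 box 8 to 4 bases before its own, on the opposite strand. They are the same 5 bases seen from either side, so a single stretch of DNA between the RefSeq starts carries both. The Psmb8 match lies 97 to 89 bases before the RefSeq start and the Tapbp boxes 248 to 244 and 165 to 161 bases before theirs. GENCODE starts Psmb8 at 34197721 and Tapbp at 33915899 and ends Psmb9, on the minus strand, at 34187764. By that annotation the matches of these genes lie inside the genes and not upstream of them. GENCODE annotates exon sequence over the whole windows of Tap1, Tapbp, Psmb8, Psmb9 and Erap1, so every printed match lies in annotated exon sequence. In the windows of Psmb10, Psme1 and Psme2 it does so in parts. A match is a run of letters, not a shown binding site.

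The first comparison set the poly(I:C) knockout against the saline knockout and asked what the injection changed in crus 1 of Fmr1 knockout mice. Of the 10 members 8 rose at an adjusted p under 0.05 (edgeR's quasi-likelihood test, Benjamini-Hochberg over 19166 genes), against 1.81% of all genes tested. In 9 of 10 members every treated library lay above every saline knockout library, which held for 4.93% of all genes. The largest change was in Nlrc5, followed by the inducible subunit Psmb8, the transporter subunit Tap1 and the inducible subunit Psmb9, while Psme1, Psme2 and Erap1 had the smallest fold changes. The median log2 fold change over the members was 1.03, and -0.00 over all genes tested. The members' summed level was 178, 209, 211 and 168 CPM in poly(I:C) knockout libraries 1 to 4, against 105, 115, 116 and 107 CPM in the saline knockout. In bulk RNA, more RNA per cell and more cells of a type that carries the RNA cannot be told apart.

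**Figure D1:**
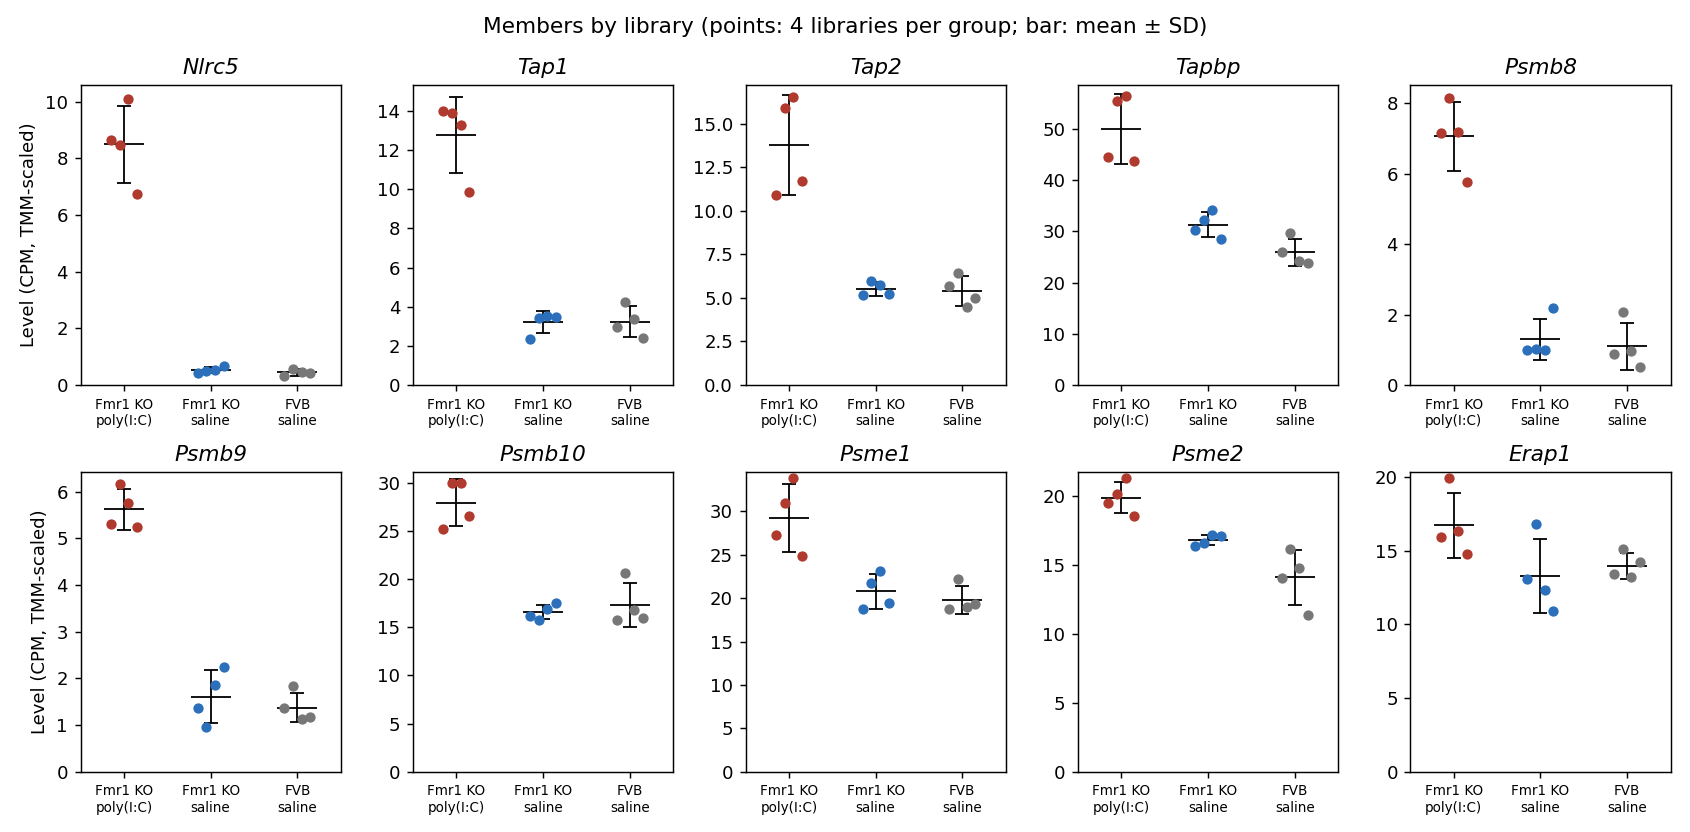
Level of each of the 10 genes (CPM, scaled by TMM, axes from 0) in every library of the poly(I:C) knockout, saline knockout and FVB groups; points are the 4 libraries of a group, bars the mean and SD. The treated libraries sit above all others in every panel but that of Erap1, and the fold is largest for Nlrc5 (8.48 CPM on average against 0.537 in the saline knockout and 0.443 in FVB).

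Nlrc5, the class I transactivator, had 8.63, 8.48, 10.1 and 6.75 CPM in the poly(I:C) knockout, against 0.417, 0.504, 0.538 and 0.688 CPM in the saline knockout. The lowest treated library was far above the highest saline library. The gene was almost silent without treatment: 1594 reads were counted over the 4 treated libraries, against 92 over the 4 saline knockout libraries and 71 over the 4 FVB libraries. It rose 15.6-fold (log2 3.96, SE 0.219, 95% interval 3.50 to 4.42, edgeR adjusted p = 7.27e-10) and was number 10 of 19166 genes by p. Ciita, the transactivator of class II genes and also an NLR protein, averaged 2.01 ± 0.254 CPM in the poly(I:C) knockout and 1.49 ± 0.114 CPM in the saline knockout (SD, n = 4 each), a log2 difference of 0.43 that was not called (95% interval -0.02 to 0.89, edgeR adjusted p = 0.348). The difference between the 2 responses was not tested.

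The immunoproteasome is the proteasome in which 3 inducible subunits take the places of 3 constitutive catalytic ones: Psmb8 (LMP7, beta5i) that of Psmb5, Psmb9 (LMP2, beta1i) that of Psmb6 and Psmb10 (MECL-1, beta2i) that of Psmb7. The exchange favours peptides with the hydrophobic or basic ends that class I molecules hold. All 3 inducible subunits rose and none of the constitutive 3 was called.

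Psmb8 had 7.16, 8.14, 7.18 and 5.77 CPM in the poly(I:C) knockout, against 0.991, 1.01, 1.00 and 2.18 CPM in the saline knockout. Its 4 treated libraries lay above all saline libraries, and saline library 4 stood well above the other saline libraries, which lay close together. The gene rose 5.39-fold (log2 2.43, SE 0.347, edgeR adjusted p = 6.30e-04). Psmb9 had 5.3, 6.17, 5.77 and 5.25 CPM in the poly(I:C) knockout, against 1.36, 0.957, 1.87 and 2.24 CPM in the saline knockout. The treated libraries were tightly grouped and the saline libraries spread more widely below them. Psmb9 rose 3.48-fold (log2 1.80, SE 0.23, edgeR adjusted p = 5.42e-05). Psmb10 had 25.2, 30.0, 30.0 and 26.5 CPM in the poly(I:C) knockout, against 16.2, 15.8, 16.9 and 17.5 CPM in the saline knockout. In the saline knockout its level per length, 12.6 CPM per kb, was far above that of Psmb8 (0.795 CPM per kb) and Psmb9 (1.19 CPM per kb), and its groups did not overlap. Psmb10 rose 1.68-fold (log2 0.75, SE 0.0959, edgeR adjusted p = 5.37e-05).

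The constitutive counterparts stayed near their saline levels. Psmb5 averaged 37.1 ± 4.09 CPM in the poly(I:C) knockout and 33.8 ± 3.53 CPM in the saline knockout (log2 0.13, 95% interval -0.07 to 0.34, edgeR adjusted p = 0.562). Psmb6 averaged 88.5 ± 2.69 CPM in the poly(I:C) knockout and 93.7 ± 5.09 CPM in the saline knockout (log2 -0.08, interval -0.22 to 0.06, edgeR adjusted p = 0.612). Psmb7 averaged 82.7 ± 4.19 CPM in the poly(I:C) knockout and 86.7 ± 3.42 CPM in the saline knockout (log2 -0.07, interval -0.20 to 0.06, edgeR adjusted p = 0.66). Each interval leaves out a rise as large as that of the inducible partner.

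Set per length of the principal transcript, Psmb8 RNA amounted to 10.5% ± 0.997 of Psmb5 RNA in the poly(I:C) knockout, 2.07% ± 0.728 in the saline knockout and 1.69% in FVB, where the 4 libraries ranged from 0.813 to 2.81% (SD, n = 4 each). Psmb9 RNA amounted to 3.76% ± 0.396 of Psmb6 RNA in the poly(I:C) knockout, 1.00% ± 0.305 in the saline knockout and 0.886% ± 0.15 in FVB. Psmb10 RNA amounted to 30.0% ± 3.41 of Psmb7 RNA in the poly(I:C) knockout, 16.9% ± 0.888 in the saline knockout and 17.9% ± 1.92 in FVB. In all 3 pairs the lowest treated library lay above the highest library of either saline group, and in all 3 the constitutive subunit remained the more abundant RNA in every library. These ratios are descriptions without a test of their own, and lengths were taken from GENCODE M21 and not from the annotation used for counting.

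**Figure D2:**
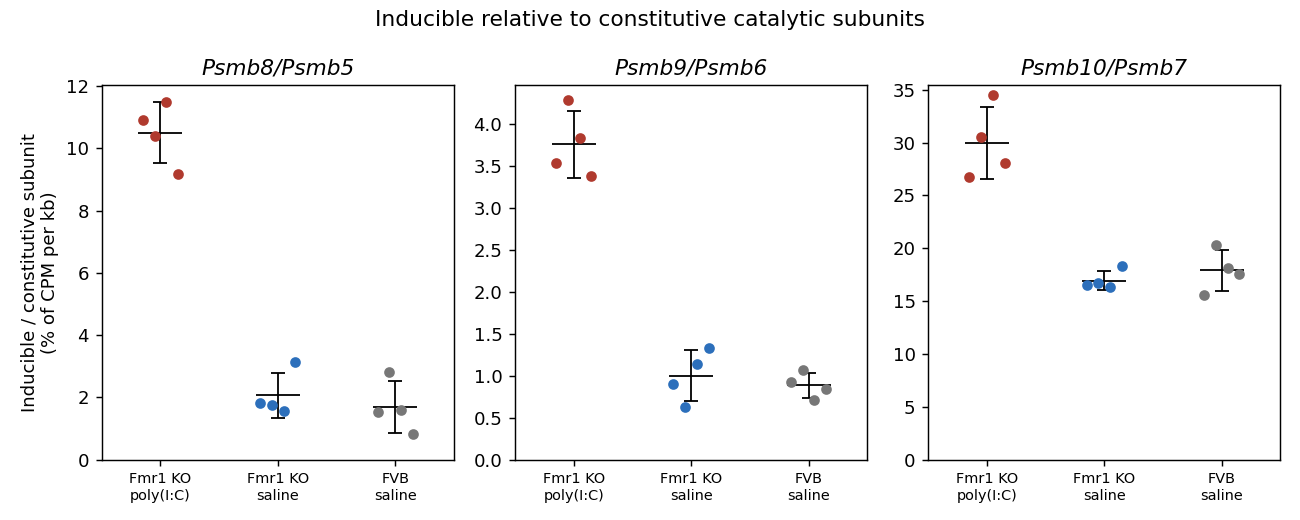
Inducible over constitutive catalytic subunit, in percent of CPM per kb, by library (points) with mean and SD (bars), for Psmb8 over Psmb5, Psmb9 over Psmb6 and Psmb10 over Psmb7; groups run from poly(I:C) knockout to saline knockout to FVB. Treated libraries span 9.19 to 11.5%, 3.38 to 4.28% and 26.7 to 34.5% in the 3 panels, above all saline libraries.

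Psme1 and Psme2 encode PA28alpha and PA28beta, which form the ring that caps the proteasome and speeds the release of peptides. Psme1 had 27.3, 31, 33.8 and 24.9 CPM in the poly(I:C) knockout, against 18.8, 21.8, 23.1 and 19.5 CPM in the saline knockout. The groups did not overlap, though the lowest treated library lay close to the highest saline library. Psme1 rose 1.4-fold (log2 0.49, SE 0.101, edgeR adjusted p = 0.00911). Psme2 had 19.5, 20.2, 21.3 and 18.6 CPM in the poly(I:C) knockout, against 16.4, 16.6, 17.2 and 17.1 CPM in the saline knockout. Here too the groups did not overlap, but the log2 difference of 0.24 (SE 0.0979, 95% interval 0.04 to 0.45) was not called (edgeR adjusted p = 0.224). The third PA28 subunit gene, Psme3, whose product acts in the nucleus, stood at a log2 difference of -0.04 and the large activator Psme4 at 0.02, with edgeR adjusted p of 0.845 and 0.954.

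Tap1 and Tap2 encode the pair of subunits of the peptide transporter. Tap1 had 14, 13.9, 13.3 and 9.89 CPM in the poly(I:C) knockout, against 2.37, 3.45, 3.54 and 3.5 CPM in the saline knockout. Treated library 4 and saline library 1 were each the low one of their group, and every treated library was still far above every saline one. Tap1 rose 3.96-fold (log2 1.99, SE 0.182, edgeR adjusted p = 7.10e-07). Tap2 had 10.9, 15.9, 16.5 and 11.7 CPM in the poly(I:C) knockout, against 5.16, 5.97, 5.74 and 5.21 CPM in the saline knockout. Its treated libraries fell into a higher and a lower pair, and the higher pair are the libraries 2 and 3 with high Ttr. Tap2 rose 2.49-fold (log2 1.32, SE 0.152, edgeR adjusted p = 1.63e-05).

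Per kb of transcript, Tap1 averaged 4.32 ± 0.653 and Tap2 4.00 ± 0.827 CPM per kb in the poly(I:C) knockout (SD, n = 4 each). The means were 1.09 for Tap1 and 1.6 for Tap2 in the saline knockout and 1.1 for Tap1 and 1.57 for Tap2 in FVB. The closeness of the treated means did not hold in every library. Poly(I:C) library 1 had 4.73 for Tap1 and 3.18 for Tap2, while library 2 had 4.69 and 4.62, library 3 4.5 and 4.79 and library 4 3.35 and 3.39.

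Tapbp encodes tapasin, which bridges TAP to the class I heavy chain. It had 44.6, 55.5, 56.5 and 43.7 CPM in the poly(I:C) knockout, against 30.2, 32.3, 34.2 and 28.6 CPM in the saline knockout. The groups did not overlap, and libraries 2 and 3 were again the high treated ones. Tapbp rose 1.6-fold (log2 0.68, SE 0.0974, adjusted p = 2.15e-04 by edgeR). Erap1, the peptidase that trims peptides inside the endoplasmic reticulum, had 15.9, 19.9, 16.3 and 14.8 CPM in the poly(I:C) knockout, against 13.1, 16.8, 12.3 and 10.9 CPM in the saline knockout. Saline library 2, a library with high Ttr, lay among the treated libraries, and no other saline library did. The log2 difference of 0.33 (SE 0.124, 95% interval 0.07 to 0.59) was not called (edgeR adjusted p = 0.179). Without saline library 2 it was 0.47 (SE 0.117, edgeR adjusted p = 0.045). That was the only call over 23 other settings of the fit, in which the log2 difference ran from 0.24 to 0.47.

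Some of these loci share exon bases with a neighbour, and whether counting used strand is not given. Psmb8 shares 498 exon bases and Tap2 698 with genes annotated on the other strand. Zbtb22, which GENCODE overlaps with Tapbp on the same strand, averaged 32.4 CPM in the poly(I:C) knockout and 39.3 CPM in the saline knockout, and Cast, which overlaps Erap1 on the other strand, 14.9 CPM in the poly(I:C) knockout and 14.2 CPM in the saline knockout. Neither was called (edgeR adjusted p = 0.102 and 0.815). Psmb9 and Tap1 share 212 bases of annotation, and how a read there was counted is not given. Psme2 has a near-identical copy, Psme2b, at 4.9 CPM in the poly(I:C) knockout and 3.98 CPM in the saline knockout, so its own counts are uncertain by an unknown share.

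**Figure D3:**
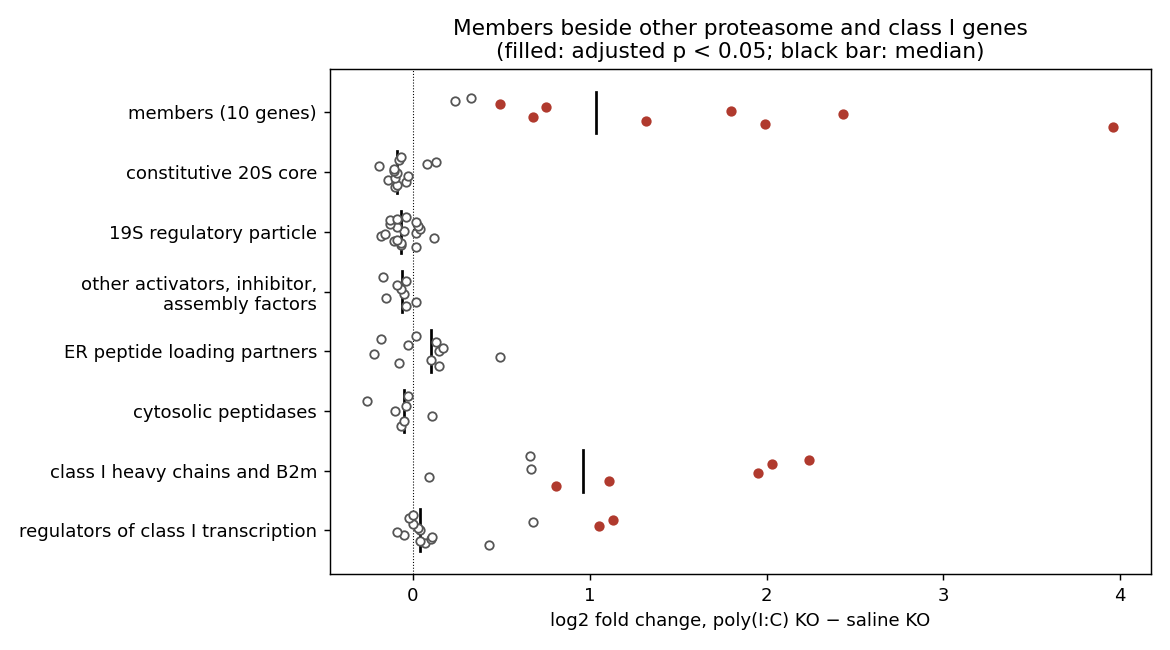
Log2 fold change of the poly(I:C) knockout over the saline knockout (x axis) for the 10 members and for the genes of 7 other lists of the same pathway (rows); each point is a gene, filled where the adjusted p was under 0.05, and black bars are list medians. The members reach 3.96, while the 20S core, 19S particle and other proteasome factors lie within 0.2 of 0.

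The rest of the proteasome was not called. Of 14 genes of the constitutive 20S core 0 were called by edgeR, DESeq2 or limma-voom (2 at an unadjusted p under 0.05 in edgeR), with a median log2 fold change of -0.09 and a range of -0.19 to 0.13. The smallest p belonged to Psmb3 (-0.19, edgeR adjusted p = 0.219) and Psma4 (-0.14, 0.292). Unadjusted p under 0.05 were common over all genes: Psma4, at an unadjusted edgeR p of 0.0396, was number 2598 of 19166 by p. Of 18 genes of the 19S particle, which recognises and unfolds ubiquitinated proteins, 0 were called by any of the 3 tools (3 at an unadjusted p under 0.05), with a median of -0.07, and 1 was called lower when saline library 4 was left out. Psmd1 (-0.18, edgeR adjusted p = 0.16) came first by p. Of 8 other activators, inhibitor and assembly factors, 0 were called by the 3 tools and 0 had an unadjusted p under 0.05. Among them was Pomp, a chaperone of proteasome maturation, at a log2 difference of -0.05.

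Of 11 partners in the loading of peptides, among them the chaperones Calr, Canx and Pdia3, 0 were called by edgeR (4 at an unadjusted p under 0.05) and 1 by DESeq2 and by limma-voom. Nearest to the threshold was Tapbpl, which encodes the tapasin relative TAPBPR, at 10.7 ± 1.44 CPM in the poly(I:C) knockout and 7.59 ± 1.2 CPM in the saline knockout, groups that did not overlap (log2 0.49, SE 0.132, edgeR adjusted p = 0.0515). Calr stood at 0.15, Canx at -0.08 and Pdia3 at 0.10. Of 7 cytosolic peptidases, which destroy or trim peptides before transport, 0 were called by the 3 tools (1 at an unadjusted p under 0.05, Nln at -0.26, edgeR adjusted p = 0.121).

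Of 8 genes for class I heavy chains and B2m that were tested 5 rose, against the same 1.81% of all genes: B2m by 0.81, H2-K1 by 1.11, H2-Q4 by 1.95, H2-T23 by 2.03 and H2-T24 by 2.24 on the log2 scale, while H2-D1 (0.09), H2-T22 (0.67, edgeR adjusted p = 0.479) and H2-M3 (0.66, edgeR adjusted p = 0.105) were not called. That count was 3 when poly(I:C) library 2 or 3 or saline library 1 or 2 was left out and 2 without the 3 libraries with high Ttr, and reads of these near-identical genes may be split between copies. Of 15 regulators of class I transcription 2 rose, among them Irf1, an interferon-induced transcription factor, with 8.17 ± 1.22 CPM in the poly(I:C) knockout and 3.92 ± 0.831 CPM in the saline knockout (log2 1.05, SE 0.178, edgeR adjusted p = 0.00129). Without the 3 libraries 1 of the 15 was called. Irf8 stood at 0.68 (edgeR adjusted p = 0.0711), and the NF-kB subunits Nfkb1 and Rela at -0.02 and 0.00.

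Markers of other cells were measured beside these changes. Of 10 microglia markers 2 fell, against 1.06% of all genes that fell: P2ry12 fell by 0.62 and Csf1r fell by 0.41 on the log2 scale, and their summed level was 98.2 to 119 CPM in the poly(I:C) knockout and 108 to 135 CPM in the saline knockout. The 12 lymphocyte markers summed to 0.434 to 1.59 CPM in the poly(I:C) knockout and 1.12 to 1.75 CPM in the saline knockout, with 0 of the 2 that could be tested called (edgeR, 0 at an unadjusted p under 0.05). Neutrophil and monocyte markers summed to 6.49 to 16.3 CPM in the poly(I:C) knockout, 6.2 to 31.1 CPM in the saline knockout and 1.31 to 2.59 CPM in FVB. Of 9 tested 1 was called, Plac8, higher in the treated knockout (log2 2.81), while the median was -1.26 and 4 of 9 were above 0. Lower but not called were Camp (-2.47), Ngp (-2.20), S100a8 (-1.78) and S100a9 (-1.37), each at an unadjusted p under 0.05 in edgeR, and Retnlg (-1.26). Endothelial markers summed to 392 to 429 CPM in the poly(I:C) knockout and 398 to 483 CPM in the saline knockout. Of these markers 1 of 10 was higher (Ly6c1) and 3 lower (Tie1, Tek and Slco1a4), against 1.81% of all genes that rose and 1.06% that fell. Of 8 astrocyte markers 1 fell (Aqp4), and of 9 choroid plexus, 8 meningeal, 8 Purkinje and 8 granule cell markers 0 were called. No marker was at 0 in a whole group. The part of these shifts in the members' rise was not tested.

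Libraries of a group differed in how many members lay above the group mean. Poly(I:C) library 2 was above its group mean in 10 of 10 members and library 3 in 9, against 3 in library 1 and 0 in library 4, and libraries 2 and 3 are those with high Ttr. In the saline knockout the library with high Ttr was above its group mean in 5 of 10 members, and the mean deviation was highest in library 4 (0.14 on the log2 scale), whose Ttr was low. FVB library 2, also low in Ttr, was above its group mean in 10 of 10 members, by 0.35 on average. Without the 3 libraries with high Ttr, 7 members were called in place of 8: Nlrc5 stood at 3.79, Tap1 at 1.93, Tap2 at 1.08, Tapbp at 0.51, Psmb8 at 2.20, Psmb9 at 1.53 and Psmb10 at 0.62 on the log2 scale, and Psme1 at 0.35 was lost (edgeR adjusted p = 0.376). The largest adjusted p among the 7 was 0.0455, for Psmb8. With log2 Ttr as a covariate 8 were called.

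**Figure D4:**
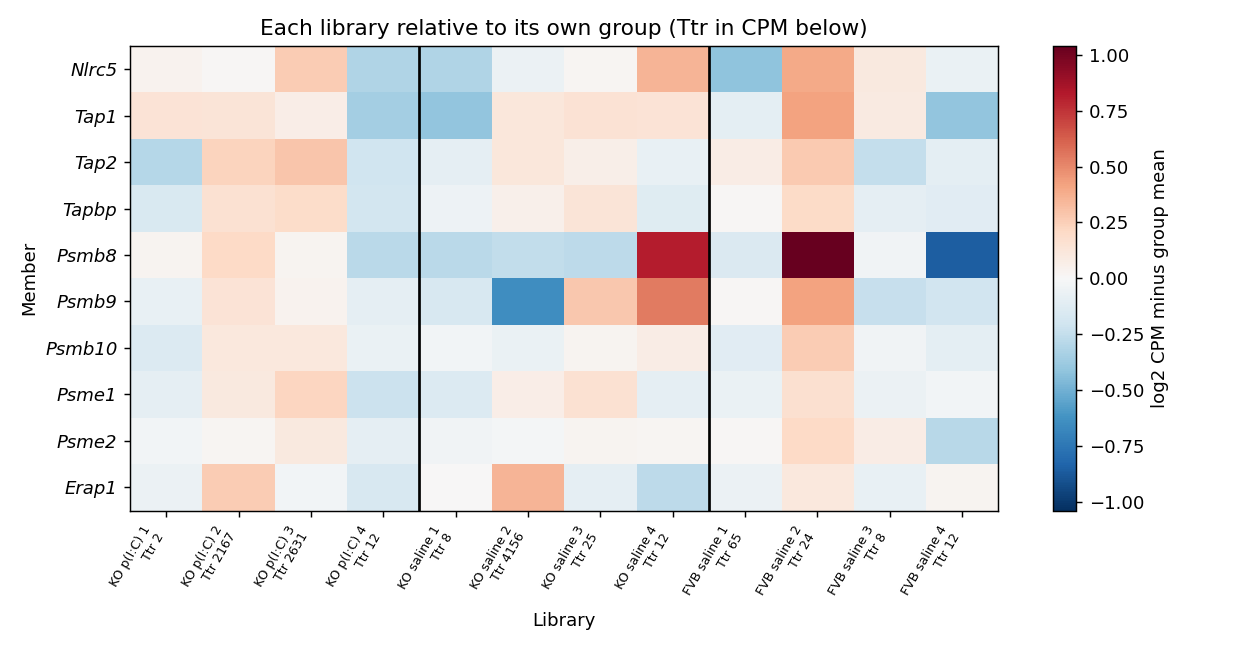
Deviation of each library from its own group's mean (log2 CPM, colour) for the 10 members (rows) in the 12 libraries (columns, poly(I:C) knockout, saline knockout, FVB), with Ttr in CPM under each library. Poly(I:C) libraries 2 and 3 are almost all above their group's mean and library 4 below it; Psmb8 has the widest range, from -0.86 in FVB library 4 to 1.04 in FVB library 2.

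The second comparison set the saline knockout against FVB and asked how the knockout differed from FVB without treatment. None of the 10 members was called, 0 by edgeR, DESeq2 and limma-voom, against 1.53% of all genes called in either direction by edgeR. At an unadjusted p under 0.05 in edgeR there were 2 members. Such p were common over all genes: Psma7, at an unadjusted edgeR p of 0.0412, was number 2052 of 19166 by p. Their median log2 difference was 0.15, and 0.00 over all genes tested. In 1 of 10 members, Psme2, every saline knockout library lay above every FVB library, which held for 3.57% of all genes.

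Psme2 had 16.4, 16.6, 17.2 and 17.1 CPM in the saline knockout, against 14.1, 16.2, 14.8 and 11.4 CPM in FVB (log2 0.25, SE 0.0988, 95% interval 0.04 to 0.46, edgeR adjusted p = 0.288). Tapbp had 30.2, 32.3, 34.2 and 28.6 CPM in the saline knockout, against 25.9, 29.7, 24.2 and 23.8 CPM in FVB, with only FVB library 2 reaching into the knockout range (log2 0.27, 95% interval 0.07 to 0.48, SE 0.0983, edgeR adjusted p = 0.219). For the other 8 the interval spanned 0. It was narrow for Psmb10 (-0.26 to 0.14), Psme1 (-0.14 to 0.28) and Erap1 (-0.33 to 0.19), and wide for the low Psmb8 (-0.53 to 1.01), Nlrc5 (-0.23 to 0.79) and Psmb9 (-0.27 to 0.73).

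Nlrc5 had 0.417, 0.504, 0.538 and 0.688 CPM in the saline knockout, against 0.313, 0.583, 0.466 and 0.41 CPM in FVB, and Tap1 had 2.37, 3.45, 3.54 and 3.5 CPM in the saline knockout, against 2.96, 4.24, 3.37 and 2.38 CPM in FVB. Both pairs of groups overlapped through most of their range.

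Among the catalytic subunits, Psmb8 had 0.991, 1.01, 1.00 and 2.18 CPM in the saline knockout, against 0.882, 2.07, 0.953 and 0.519 CPM in FVB. Each group held 1 library at about the same high level, and the groups overlapped (log2 0.24, edgeR adjusted p = 0.866). Psmb9 had 1.36, 0.957, 1.87 and 2.24 CPM in the saline knockout, against 1.36, 1.83, 1.14 and 1.17 CPM in FVB (log2 0.23, edgeR adjusted p = 0.773). Psmb10 had 16.2, 15.8, 16.9 and 17.5 CPM in the saline knockout, against 15.8, 20.6, 16.8 and 16 CPM in FVB (log2 -0.06, edgeR adjusted p = 0.878). In all 3, FVB library 2 was the highest FVB library. It was also the highest for the activator subunit Psme1, which had 18.8, 21.8, 23.1 and 19.5 CPM in the saline knockout, against 18.8, 22.2, 19 and 19.3 CPM in FVB, and for Tap2, which had 5.16, 5.97, 5.74 and 5.21 CPM in the saline knockout, against 5.66, 6.44, 4.5 and 4.97 CPM in FVB. Neither was called (log2 0.07 for Psme1 and 0.04 for Tap2, edgeR adjusted p = 0.862 and 0.966).

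Of the other proteasome and loading lists 1 gene was called in this comparison, Dpp3, a cytosolic dipeptidyl peptidase (log2 0.30, edgeR adjusted p = 0.0404), and it was lost when saline knockout library 1, 2 or 3 or FVB library 1, 3 or 4 was left out. Of the class I heavy chains and B2m 0 were called by edgeR and limma-voom and 3 by DESeq2 (3 at an unadjusted p under 0.05 in edgeR). Those 3 in edgeR were higher in the saline knockout: H2-T22 (log2 1.68, adjusted p = 0.109), H2-T23 (1.65, 0.134) and H2-T24 (1.11, 0.0581). H2-T22 ran over 3.4 to 15.4 CPM in the saline knockout and 2.99 to 3.33 CPM in FVB. Of the 8 tested 7 were above 0, and H2-D1 stood at -0.49. Of 9 neutrophil and monocyte markers tested 2 were called, both higher in the saline knockout, against 1.53% of all genes called in either direction. They were S100a8 (log2 4.14, edgeR adjusted p = 0.0119) and S100a9 (log2 3.17, edgeR adjusted p = 0.0432). All 9 were above 0, with a median of 2.52. No marker of the other cell types was called by edgeR.

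The third comparison set the poly(I:C) knockout against FVB, so that treatment and genotype differ at once and cannot be told apart. It shares the treated libraries with the first comparison and the FVB libraries with the second and is given only beside them. Of the 10 members 9 rose, against 3.81% of all genes that rose, and the same number lay without overlap above FVB, against 6.74% of all genes. Nlrc5 stood 18.9-fold above FVB (log2 4.24, SE 0.225, edgeR adjusted p = 2.53e-10), Psmb8 6.38-fold and Psmb9 4.09-fold.

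Psme2, which was not called in either of the other comparisons, was 1.41-fold above FVB, with 19.5, 20.2, 21.3 and 18.6 CPM in the poly(I:C) knockout against 14.1, 16.2, 14.8 and 11.4 CPM in FVB (log2 0.49, SE 0.0985, edgeR adjusted p = 0.00403). Its saline knockout libraries lay between both groups without touching either. Tapbp was 1.93-fold above FVB (log2 0.95, SE 0.0982, edgeR adjusted p = 3.01e-06). Erap1, at 13.4, 15.1, 13.2 and 14.2 CPM in FVB, was not called (log2 0.26, 95% interval 0.00 to 0.52, edgeR adjusted p = 0.227). Without the 3 libraries with high Ttr 7 members were called, and Psme1 (log2 0.40, edgeR adjusted p = 0.0922) and Psme2 (0.43, adjusted p = 0.1) were not.

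Of the other lists, 1 of 11 loading partners rose (Tapbpl, log2 0.64, edgeR adjusted p = 0.00554), and of 7 cytosolic peptidases 1 rose (Dpp3, log2 0.27, edgeR adjusted p = 0.0272) and 1 fell (Nln, log2 -0.43, edgeR adjusted p = 0.00395), against 3.24% of all genes that fell. None of these 3 was called without the libraries with high Ttr, and Dpp3 was also lost without poly(I:C) library 1, 3 or 4 or FVB library 1, 3 or 4. Of 8 genes for class I heavy chains and B2m 7 rose, and 3 without the libraries with high Ttr. Of 15 regulators 2 rose. These rises stand beside 3.81% of all genes that rose with all 12 libraries. Markers of other cells also differed: of 9 neutrophil and monocyte markers 2 rose (Plac8 by 5.33 and Ly6c2 by 3.20 on the log2 scale), of 10 endothelial markers 1 rose and 3 fell, of 10 microglia markers 1 fell (P2ry12) and of 8 astrocyte markers 1 fell (Aqp4). Neutrophil and monocyte markers summed to 6.49 to 16.3 CPM in the poly(I:C) knockout and 1.31 to 2.59 CPM in FVB, and microglia markers to 98.2 to 119 CPM in the poly(I:C) knockout and 118 to 137 CPM in FVB. The part of these shifts in the members' difference was not tested.

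**Figure D5:**
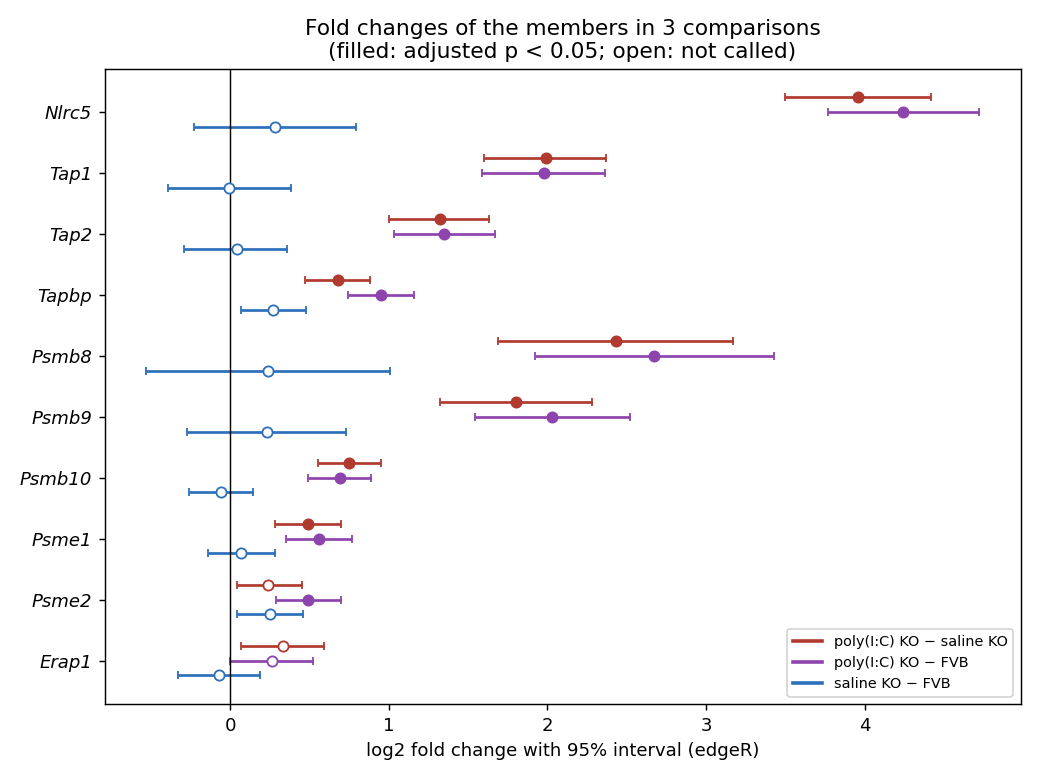
Log2 fold change with 95% interval of each member in the 3 comparisons, poly(I:C) knockout over saline knockout, poly(I:C) knockout over FVB and saline knockout over FVB; filled points had an adjusted p under 0.05. The first 2 sets lie right of 0, from 0.24 for Psme2 to 4.24 for Nlrc5, and no point of the third is filled.

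Per kb of transcript, the order of levels in the poly(I:C) knockout began with Psme1 at 26.3 CPM per kb, Psmb10 at 21.3, Psme2 at 20.7 and Tapbp at 17.3, of which Psmb10 and Psme2 lie within their spread. Then came Psmb8, Tap1, Psmb9 and Tap2 at 4.34 ± 0.599, 4.32 ± 0.653, 4.16 ± 0.321 and 4.00 ± 0.827 CPM per kb, neighbours that do not differ beyond their spread, then Erap1 at 2.97 and Nlrc5 at 1.12. In the saline knockout Psme1 and Psme2 led at 18.7 and 17.5 CPM per kb and Psmb10 and Tapbp followed at 12.6 and 10.8. Erap1, at 2.35 CPM per kb, stood above Tap2 at 1.6, Psmb9 at 1.19, Tap1 at 1.09 and Psmb8 at 0.795 there, and below these 4 in the treated libraries. Nlrc5 was last in every group, at 0.0708 CPM per kb in the saline knockout and 0.0585 in FVB.

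The members' log2 levels were alike over the 12 libraries. Over 45 pairs Pearson's r had a median of 0.916 and a range of 0.425 to 0.981, with the highest for Nlrc5 and Tap1. The 9 pairs with Erap1 had the lowest median (0.652), and the 36 without it lay between 0.787 and 0.981. Among 12394 genes outside the list whose mean log2 CPM reached 1, those most like Nlrc5 were Sp100 (r = 0.995), Samhd1 (0.992), Iigp1 (0.991), Gbp3 (0.991) and Slfn2 (0.99). Most like Psmb8 were H2-Q4 (0.989), Irf1 (0.978), Ifi47 (0.974), Ifitm3 (0.973) and Igtp (0.972). All these values are descriptions: the 12 libraries fall into a treated set and an untreated set, so any gene with a steady rise scores high.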

How the data were processed

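Bulk RNA-seq was done on 12 libraries in 3 groups of 4, taken from the labels. The authors deposited raw counts per Ensembl gene (57010 genes); per the submitters' processing notes these came from Trim Galore, HISAT2 and featureCounts on GRCm39, with versions, strand setting, annotation release and treatment of multiple matches not given in the sources used here. Symbols came from GENCODE M21, which named 52029 genes holding 99.4% of counts.

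From these counts, genes were kept by filterByExpr (minimum count 10, minimum total 15), scaled by TMM and fitted on 3 group means with edgeR 4.0.16 (R 4.3.3; robust quasi-likelihood, 9 residual degrees of freedom, biological coefficient of variation 0.152). Each comparison was a contrast adjusted by Benjamini-Hochberg over 19166 genes, and rose, fell and called mean an adjusted p under 0.05. SE is the absolute log2 change divided by the root of F. CPM per kb uses the longest principal transcript, and log2 CPM has a prior count of 2. The tests were also run with DESeq2 1.42.0 and limma 3.58.1 (voom). The members and lists were chosen with earlier results of these data known. Named are all members, the constitutive counterparts, up to 4 genes per other pathway list by smallest p in the treatment comparison, and the 5 genes most like Nlrc5 and Psmb8. Canx, Pdia3, Calr, H2-D1, H2-T22, H2-M3, Nfkb1, Rela, Psme3, Psme4, Dpp3, Pomp, Cast, Zbtb22, Camp, Ngp, Retnlg and the called markers were named after their values were seen. 1 regulator that the naming rule covers is not reported here.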

Additional observations from a re-analysis of the deposited data

Results flagged for a closer look

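In each group of 4 the highest and lowest library were set against the others by the gap to the nearest library over the group's range, at Dixon's 95% limit, which chance passes in about 1 of 20 groups, and 4 of 30 checks passed. Tap1 was 9.89 CPM in poly(I:C) knockout library 4, against 13.3 to 14 CPM in the other 3. Tap1 was 2.37 CPM in saline knockout library 1, against 3.45 to 3.54 CPM in the other 3. Psmb8 was 2.18 CPM in saline knockout library 4, against 0.991 to 1.01 CPM in the other 3. Psme1 was 22.2 CPM in FVB library 2, against 18.8 to 19.3 CPM in the other 3.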

How the results depend on the processing

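Over RLE and upper quartile scaling, DESeq2, limma-voom, no filter, a filter of 10 counts in 8 libraries, a fit of the 2 groups alone, no robust estimation, a log2 Ttr covariate, an adjusted p under 0.1 and leaving out each library, 8 to 9 members were called for treatment, 0 for genotype and 9 for treated knockout against FVB. Without the libraries with Ttr above 1000 CPM the counts were 7, 0 and 7. Psme1 lost its call in both comparisons of the treated knockout, at 0.35 and 0.40 on the log2 scale, and Psme2 in the last, at 0.43; Erap1 gained one for treatment without saline knockout 2, at 0.47. The median over all genes was 0.00 under each scaling. Signs turned only for genotype, where 0 members were called: Tap1 under limma-voom (0.00) and without saline knockout 1 (0.11), FVB 2 (0.15) or FVB 3 (0.01); Tap2 without the libraries with high Ttr (-0.00), with the Ttr covariate (-0.03) and without saline knockout 2 (-0.00), FVB 3 (-0.04) or FVB 4 (-0.00); Psmb8 and Erap1 without saline knockout 4 (-0.15 and 0.01); and Psmb10 without FVB 2 (0.03). Without 1 library each, these genotype values ranged from -0.13 to 0.15 for Tap1, -0.04 to 0.13 for Tap2, -0.15 to 0.73 for Psmb8, -0.20 to 0.01 for Erap1 and -0.10 to 0.03 for Psmb10. The cause was not tested.

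The labels do not say that a replicate number pairs the libraries. Deviations of same-numbered libraries correlated at -0.10 to 0.15 in the treatment comparison. Such weak correlations cannot exclude a shared litter or day. With the replicate number as a block, 8, 0 and 9 members were called, Tap1 stood at 0.02 for genotype, and class I genes called for treatment were 3 in place of 5.

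Genes called over the whole table moved more. For treatment 550 were called, 986 by DESeq2, 215 without the libraries with high Ttr, 917 at an adjusted p under 0.1 and 347 to 689 without 1 library (347 without poly(I:C) 3). For genotype 294 were called, 633 by DESeq2, 506 with no filter, 494 at 0.1 and 156 to 300 without 1 library (182 without saline knockout 2, and 176, 194, 156 and 161 without FVB 1 to 4). For treated knockout against FVB 1352 were called, 556 without the libraries with high Ttr, 2123 at 0.1 and 791 to 1542 without 1 library (791 without poly(I:C) 3 and 900 without FVB 2). Depth limits Nlrc5 most, with 92 and 71 counts in the saline groups.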
